A study of Mus musculus with 42 samples.

Results

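The Hox genes were followed along the mouse colon, from crypts near the cecum to crypts near the anus, and then into mutant, inflamed and tumor tissue. Members were every gene whose symbol was Hoxa, Hoxb, Hoxc or Hoxd followed by a paralog number, which gave 37 of the 20462 genes listed in the 9 tables of the series. The annotation holds 39 such genes, and Hoxc11 and Hoxc12 were listed in no table. Of the 37, 28 had a mean of at least 10 normalized counts in at least 1 comparison and were tested there, 14 were tested in all 9 comparisons, and Hoxb1, Hoxc4, Hoxc5, Hoxc6, Hoxc8, Hoxc9, Hoxc10, Hoxc13 and Hoxd1 were listed but tested in none.

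Hox genes encode homeodomain transcription factors that give cells their position along the head-to-tail axis of the embryo. They lie in 4 clusters, and within a cluster the paralog number runs from 1, at the end used early and toward the head, to 13, at the end used late and toward the tail, so that the order on the chromosome follows the order in the body. In the gut, the genes of the high paralog groups are known for their use in the hindgut, from which the distal colon forms, and the adult epithelium keeps part of this positional code. Caudal factors (Cdx1, Cdx2) act upstream of Hox genes, TALE homeodomain proteins (Meis, Pbx) bind DNA together with Hox proteins, and Polycomb and trithorax complexes hold the clusters silent or active.

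RNA was sequenced from 42 C57/BL6 mouse libraries in 14 groups, all from mice of at least 8 weeks. Mice lacking Mtg16 (gene symbol Cbfa2t3, a transcriptional corepressor), written Mtg16-/- or Mtg16-null, and mice homozygous for a Mtg16 point mutation that weakens its binding to E proteins, written T/T, came from 2 separate colonies, each with littermate-matched wild-type (WT) mice from heterozygous crosses. In both mutants the change is carried by every cell of the animal, so a difference in crypts need not begin in the epithelium. At baseline, untreated crypts freed with EDTA came from the 5 cm next to the cecum (proximal, 2 WT and 2 Mtg16-null, 2 WT and 2 T/T) and from the 5 cm next to the anus (distal, 4 WT and 4 Mtg16-null, 3 WT and 4 T/T). Distal crypts were also taken after dextran sulfate sodium (DSS), an agent that injures the colon epithelium, given at 2% for 5 days and followed by 4 days of water (3 WT and 4 Mtg16-null, 3 WT and 3 T/T). Whole distal tumors (3 WT and 3 T/T) had followed the carcinogen azoxymethane at 10 mg/kg and 3 cycles of 3% DSS.

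Values are normalized counts (reads divided by a size factor of the library) unless CPM (a share of all counts of the library, scaled to one common total) is named, and each of the 9 tables was normalized by itself. Whole reads were recovered for 38 libraries, which held 32231389 to 74661922 reads (median 46659625.5). A gene was called when its adjusted p in limma (Benjamini-Hochberg over all genes of that table) was under 0.05. Log2 fold changes are on the log2(normalized count + 1) scale with their standard error after ±, and a number alone in parentheses after a gene is its log2 fold change. The targeted transcript was lower in every Mtg16-null group than in its WT group except for an overlap in baseline distal crypts (9.69 to 24.0 against 23.0 to 39.0 CPM); in T/T mice it carries a point mutation, and its level (37.7 to 53.2 against 23.6 to 25.2 CPM in distal crypts) is no check of the label. Nothing in the labels states whether libraries of a group came from separate mice, so p-values measure the spread between these libraries. In bulk samples, fewer cells of a type and less RNA per cell cannot be told apart.

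The library labelled distal Mtg16-null replicate 2 stood apart. Of 871 genes outside the Hox clusters that differed at least 4-fold between the WT segments, 801 (92.0%) were nearer to the proximal WT mean in it, compared with at most 4.59% in the other 14 distal baseline libraries and 93.8% to 99.4% in the 8 proximal ones. The WT libraries among these set the means and had to separate. In the other mutant libraries the share was 1.61% to 4.59% in distal and 93.8% to 97.2% in proximal crypts. Its Hox genes did the same: of 28 compared, 17 lay in the proximal range only (Hoxb13 at 245, Hoxb6 at 2883 and Hoxd9 to Hoxd13 at 0), Hoxa2 lay in the distal range only, Hoxa4 and Hoxa7 lay in both, and Hoxa5, Hoxa6, Hoxa9, Hoxa10, Hoxa11, Hoxa13, Hoxb8 and Hoxd3 lay in neither. Its segment goes against the label, so results that use it are given with and without it. The comparison of WT segments does not contain it.

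**Figure D1:**
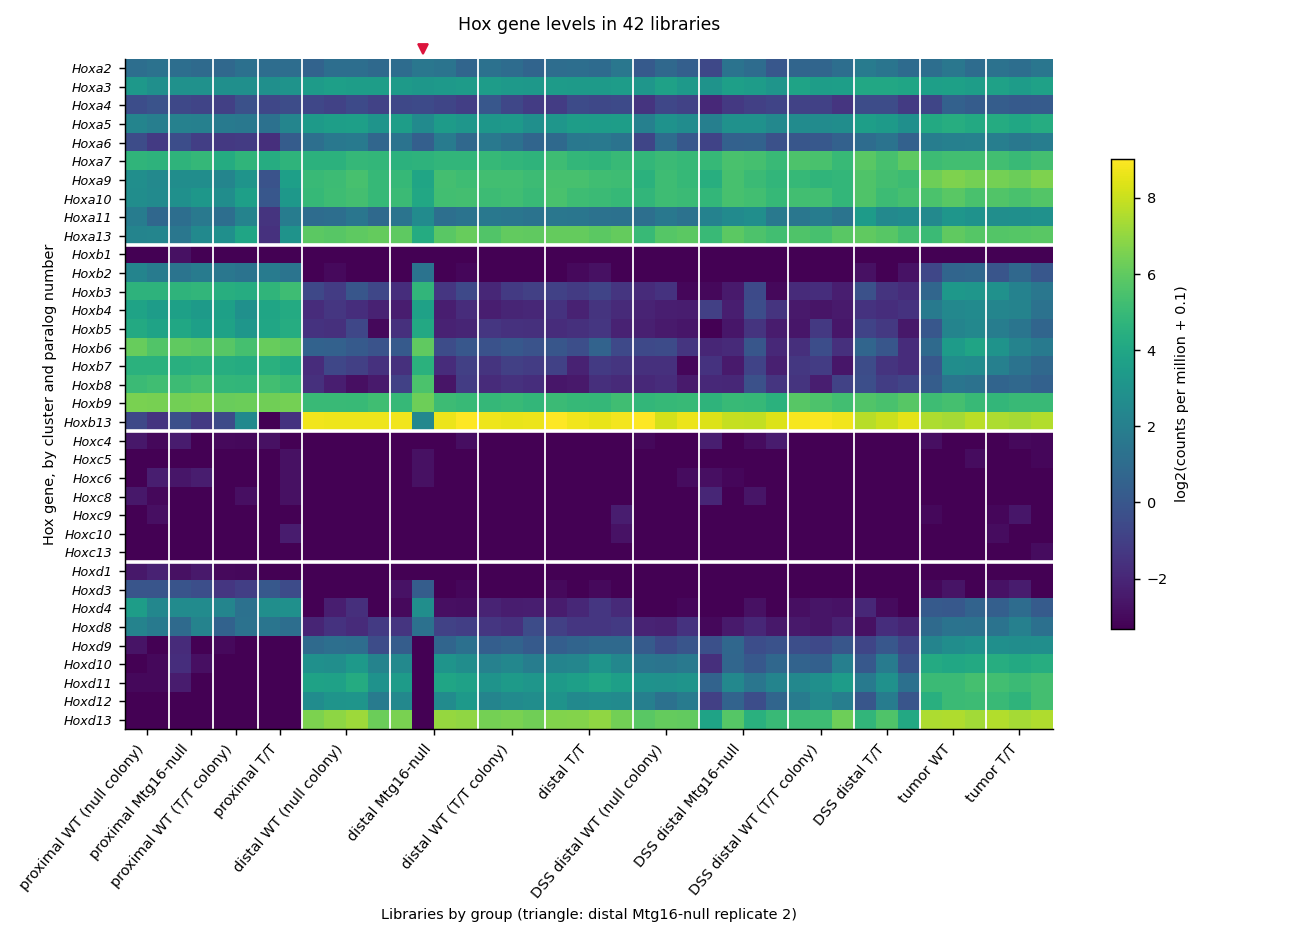
Level of the Hox genes (vertical axis, by cluster and paralog number) in each of the 42 libraries (horizontal axis, by group), as log2(CPM + 0.1) in color. Hoxb2 to Hoxb8 are bright in proximal libraries, Hoxb13 and Hoxd9 to Hoxd13 in distal ones, and the triangle marks distal Mtg16-null replicate 2, whose column has the proximal pattern.

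The clusters lie on chromosomes 6 (Hoxa, chr6:52155590-52260880, minus strand), 11 (Hoxb, chr11:96194316-96368256), 15 (Hoxc, chr15:102921103-103036852) and 2 (Hoxd, chr2:74668310-74765142, the last 3 on the plus strand) of GRCm38, with each gene of high paralog number at the 5′ end of its cluster. Promoter windows of 250 bases upstream of the start were found in the RefSeq table (GRCm38.p6) for 22 of the 37 genes, in 24 windows. Shown are 4 windows from genes on opposite sides of the results that follow: Hoxd13 (chr2:74667975-74668224) and Hoxd12 (chr2:74674763-74675012), with no read in proximal WT crypts, and Hoxb8 (chr11:96281655-96281904) and Hoxb4 (chr11:96318017-96318266), near 0 in distal crypts, all on the plus strand, 5′ to 3′. Capitals mark the E box CANNTG, the motif bound by the E proteins that Mtg16 partners, and TTTAT, a core of the sites of Cdx factors, both searched on both strands with overlapping matches joined.
Hoxd13: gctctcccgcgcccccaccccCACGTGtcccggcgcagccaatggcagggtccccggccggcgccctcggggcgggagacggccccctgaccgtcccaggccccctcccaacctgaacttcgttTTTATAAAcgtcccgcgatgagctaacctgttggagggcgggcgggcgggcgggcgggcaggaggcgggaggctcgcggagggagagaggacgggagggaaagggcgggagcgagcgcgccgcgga
Hoxd12: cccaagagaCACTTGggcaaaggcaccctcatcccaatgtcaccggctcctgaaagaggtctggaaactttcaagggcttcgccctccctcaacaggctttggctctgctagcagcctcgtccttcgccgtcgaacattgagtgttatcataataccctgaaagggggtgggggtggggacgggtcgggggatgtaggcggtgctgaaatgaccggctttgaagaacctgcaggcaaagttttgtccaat
Hoxb8: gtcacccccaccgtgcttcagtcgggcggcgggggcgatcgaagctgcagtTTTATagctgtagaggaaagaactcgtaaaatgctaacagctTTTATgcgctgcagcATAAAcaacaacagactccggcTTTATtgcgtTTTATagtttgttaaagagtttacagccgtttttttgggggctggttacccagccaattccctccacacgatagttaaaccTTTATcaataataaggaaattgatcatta
Hoxb4: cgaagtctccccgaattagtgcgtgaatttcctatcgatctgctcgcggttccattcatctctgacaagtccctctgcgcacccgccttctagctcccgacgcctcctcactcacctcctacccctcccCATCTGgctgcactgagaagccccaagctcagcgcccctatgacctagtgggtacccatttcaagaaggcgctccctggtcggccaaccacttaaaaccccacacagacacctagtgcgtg
The windows differ in composition. That of Hoxd13 has 74.4% G and C and 31 CpG dinucleotides, with 1 E box and 2 TTTAT, and that of Hoxd12 has 55.6% and 10 CpG, with 1 E box and no TTTAT. That of Hoxb8 has 44.4% and 12 CpG with no E box, and holds TTTAT 6 times, where 129 of the 32841 windows of the table (0.393%) held at least 6. That of Hoxb4 has 58.0% and 14 CpG, with 1 E box and no TTTAT. Over the 24 Hox windows the median was 58.6% G and C (40.4% to 80.0%, 52.4% over all windows) and 12.5 CpG (2 to 35, 6 over all windows). An E box was present in 17 of 24 Hox windows (70.8%) and in 66.2% of all windows, and TTTAT in 9 of 24 (37.5%) and in 37.3%. A match is a run of letters in this window and says nothing of binding.

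Along the WT colon nearly every Hox gene with measurable RNA depended on the segment, and each cluster had its own pattern. The comparison asks how the epithelium of the distal colon (7 libraries) differs from that of the proximal colon (4 libraries) before any treatment. Of 27 Hox genes tested, 23 were called (85.2%), 13 higher and 10 lower in distal crypts, where 42.1% of all 13841 genes tested were called, 20.1% higher and 22.0% lower. The segment groups did not overlap for 22 of the 27 (81.5%), compared with 30.0% of all genes. The median log2 fold change over the 27 was 0.13 and over all genes 0.0048.

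The Hoxb cluster changed sides within itself. Hoxb2 to Hoxb8 were abundant in proximal crypts and close to 0 in distal crypts, and all 7 fell toward the anus, with log2 fold changes between -7.67 and -5.75 (median -5.90). Hoxb6, the most abundant of them, read 3091, 2426, 2581 and 1854 in the 4 proximal libraries (null colony 1 and 2, then T/T colony 1 and 2) and 32.2 to 62.7 (median 41.9) in the 7 distal ones, a log2 fold change of -5.78 ± 0.19 (SE, adjusted p = 8.0e-11). Hoxb8 read 1473, 1793, 1332 and 1266 against 1.89 to 10.5 (median 7.78), a log2 fold change of -7.67 ± 0.35 (adjusted p = 1.2e-09). No distal library came near a proximal one for either gene.

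The neighbors of Hoxb8 and Hoxb6 also fell. Hoxb3 read 1099, 1190, 976 and 900 in proximal libraries against 6.67 to 37.8 (median 18.5) in distal ones (log2 fold change -5.75), and Hoxb4 read 607, 521, 595 and 332 against 4.45 to 12.4 (median 6.93, log2 fold change -5.90). Hoxb5 read 784, 678, 628 and 408 against 1.02 to 22.1 (median 10.5, log2 fold change -5.90). Hoxb7 read 1019, 1095, 964 and 878 against 8.96 to 22.5 (median 16.2, log2 fold change -6.00). Across these genes the 2 proximal T/T-colony libraries tended to the lower values, and T/T colony replicate 2 was the lowest proximal library for each of Hoxb2 to Hoxb8. Hoxb2, the gene nearest the 3′ end that was tested, read 200, 162, 135 and 113 in proximal libraries and 0 in 6 of the 7 distal ones, with 1.13 in the seventh (log2 fold change -7.08 ± 0.34, adjusted p = 1.8e-09). In pooled reads, the proximal share of reads of Hoxb8 was 226 times the distal one (95% counting interval 168 to 311, 6298 against 44 reads), that of Hoxb6 was 55.1 times, and Hoxb2, with 666 reads against 1, gave a ratio of 1050 (188 to 41547). These intervals and the floors below cover counting error only.

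Hoxb9 and Hoxb13, the 5′ end of the cluster, did not follow. Hoxb9 read 4003, 4236, 3420 and 3430 in proximal and 1249 to 1728 (median 1367) in distal libraries, so it also fell (log2 fold change -1.41 ± 0.09, adjusted p = 4.3e-08), but remained at 1420 ± 162 (SD, n = 7). Hoxb13, set apart from Hoxb9 by 74.009 kb and a known marker of distal colon and prostate epithelium, had the highest distal level per kilobase of all members and read 16898 to 19501 (median 17856, 18166 ± 925, SD, n = 7) against 23.1, 12.6, 27.9 and 259 (log2 fold change 8.84 ± 0.56, adjusted p = 2.7e-08). T/T colony replicate 2 held most of the proximal Hoxb13 reads, and without it the log2 fold change was 9.74. Pooled reads gave a distal level 237 times the proximal one (213 to 265).

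The Hoxd cluster split between Hoxd8 and Hoxd9, whose annotated ends lie 4.406 kb apart. All 5 genes of paralog groups 9 to 13 were called higher in distal crypts and both tested genes of groups 1 to 8 lower. Hoxd13, the last gene of the cluster and required for hindgut and limb ends, had no read in any of the 4 proximal libraries and read 3496 to 6473 (median 4065, 4443 ± 1102, SD, n = 7) in distal ones (log2 fold change 12.08 ± 0.16, adjusted p = 1.6e-14). Hoxd12 also had no proximal read and read 162 to 365 (median 287, log2 fold change 8.05 ± 0.24, adjusted p = 3.8e-11). With a floor of 3 reads over the proximal group, the distal level was at least 6814-fold higher for Hoxd13 (32237 reads) and at least 414-fold higher for Hoxd12 (1960 reads); fitted fold changes of genes at 0 in a group depend on the pseudocount.

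Hoxd11, Hoxd10 and Hoxd9 had at most a few proximal reads. Hoxd11 read 0.796, 0.969, 0 and 0 in proximal against 338 to 829 (median 462) in distal libraries (log2 fold change 8.48 ± 0.29, adjusted p = 8.0e-11), and its pooled ratio was 1193 (330 to 9852). Hoxd10 read 0, 0.969, 0 and 0 against 164 to 426 (median 224, log2 fold change 7.71 ± 0.30, adjusted p = 2.4e-10), with a pooled ratio of 1212 (217 to 47886). Hoxd9 read 2.39, 0, 1.03 and 0 against 29.5 to 97.0 (median 62.8, log2 fold change 5.25 ± 0.41, adjusted p = 2.2e-07), with a pooled ratio of 73.4 (28.5 to 271). For all 5 genes each distal library was above each proximal one. On the other side of the split, Hoxd8 read 196, 158, 64.1 and 108 in proximal and 6.40 to 27.7 (median 11.3) in distal libraries (log2 fold change -3.24 ± 0.38, adjusted p = 1.0e-05), and Hoxd4 read 503, 244, 222 and 104 against 0 to 9.45 (median 4.51, log2 fold change -5.94 ± 0.66, adjusted p = 7.2e-06). Hoxd3, which overlaps Hoxd4 on the same strand, read 13.4 to 40.7 in proximal and 0 in all distal libraries but was below the mean count needed for a test; 119 proximal reads put its proximal level at least 62.6-fold higher. Hoxd1 had 12 proximal reads and none in distal libraries (at least 6.31-fold higher).

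The Hoxa cluster was read in both segments. Of its 4 genes of paralog groups 9 to 13, 3 were called higher in distal crypts: Hoxa13 read 201, 223, 321 and 687 in proximal and 2145 to 3253 (median 2735) in distal libraries (log2 fold change 3.10 ± 0.26, adjusted p = 3.8e-07), Hoxa9 read 288, 263, 221 and 374 against 1457 to 1847 (median 1575, log2 fold change 2.50 ± 0.12, adjusted p = 2.0e-09), and Hoxa10 read 283, 275, 305 and 572 against 1397 to 1767 (median 1487, log2 fold change 2.16 ± 0.17, adjusted p = 1.9e-07). None of the 3 overlapped between segments. T/T colony replicate 2 was the highest proximal library for all 3, as it was for Hoxb13. Hoxa11, between Hoxa10 and Hoxa13, was not called (76.6 to 201 against 83.5 to 126, log2 fold change -0.23, adjusted p = 0.48).

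Toward its 3′ end the Hoxa cluster was divided between called and even genes. Hoxa6 read 27.1, 15.5, 14.5 and 15.5 in proximal and 69.3 to 137 (median 102) in distal libraries (log2 fold change 2.48 ± 0.25, adjusted p = 2.2e-06), and Hoxa5 read 198, 175, 152 and 137 against 309 to 534 (median 435, log2 fold change 1.38 ± 0.16, adjusted p = 9.4e-06). Hoxa3 read 410, 330, 320 and 313 against 421 to 545 (median 492, log2 fold change 0.51 ± 0.11, adjusted p = 0.00155), so that its groups were only just apart. Hoxa7 was one of the most even members (890 to 1214 against 1073 to 1329, log2 fold change 0.13, adjusted p = 0.31), and Hoxa2 (-0.21) and Hoxa4 (-0.30) were not called either. The gene models of Hoxa3 and Hoxa4 to Hoxa6 overlap on the same strand, and antisense RNAs cannot be told apart from 14 of the members because the library kit does not mark strand.

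The Hoxc cluster was close to silent along the whole colon. In WT baseline crypts, Hoxc4 had 7 reads, Hoxc6 5, Hoxc8 7 and Hoxc9 2, all in proximal libraries, and no Hoxc gene had a read in any of the 7 distal libraries. The sum of the cluster was at most 0.296 CPM in any of the 42 libraries. Hoxb1 was at most 0.0462 CPM.

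**Figure D2:**
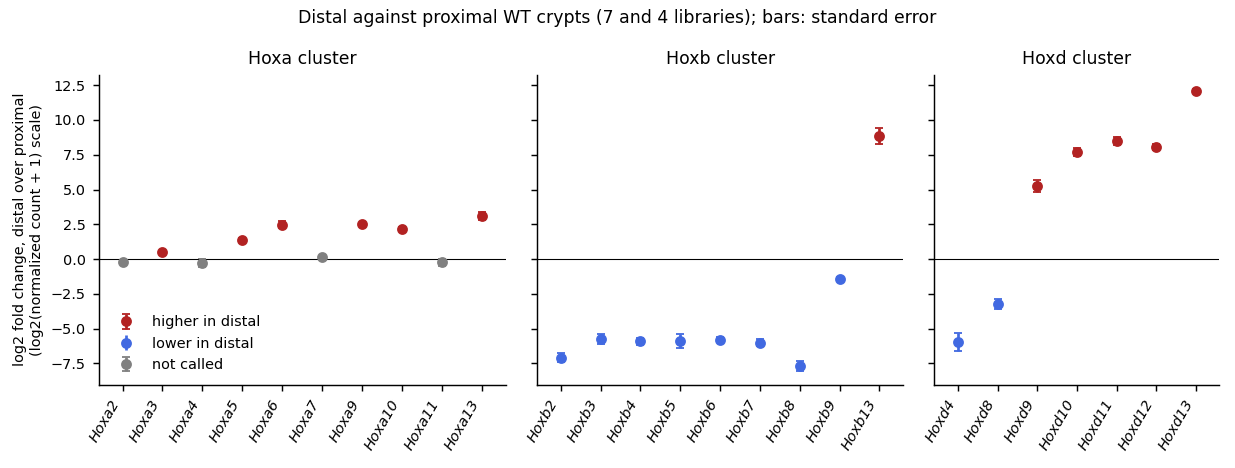
Log2 fold change of distal (7 libraries) over proximal (4 libraries) WT crypts on the log2(normalized count + 1) scale, for tested Hox genes in order of paralog number, with bars for the standard error. The sign turns between Hoxb9 (-1.41) and Hoxb13 (8.84) and between Hoxd8 (-3.24) and Hoxd9 (5.25), while the called Hoxa genes stand at 0.51 to 3.10.

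The order of the changes followed the paralog number closely in 1 cluster only. As a description over genes, which share libraries and are not independent, Spearman's rho between paralog number and log2 fold change was 0.96 over 7 Hoxd genes, and 0.37 over both 11 Hoxa genes and 9 Hoxb genes. The same paralog group could differ in direction between clusters: Hoxb9 fell while Hoxa9 and Hoxd9 rose, and Hoxb5 and Hoxb6 fell while Hoxa5 and Hoxa6 rose. All 3 tested genes of group 13 (Hoxa13, Hoxb13, Hoxd13) were higher in distal crypts.

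Levels can be ranked between genes per kilobase of the longest transcript. In distal WT crypts Hoxb13 stood at 186 ± 6.41 CPM per kb (SD, n = 7), followed by Hoxd13 at 40.5 ± 10.5, Hoxa13 at 25.6 ± 2.67, Hoxa10 at 13.5 ± 1.43, Hoxa7 at 13.5 ± 1.27, Hoxb9 at 12.4 ± 1.06 and Hoxa9 at 11.2 ± 1.25. The group 13 genes thus held the 3 highest levels, with a gap larger than the spread after each, while neighbors in the order among the next 4 differed by less than the larger of their SDs. In proximal WT crypts Hoxb9 stood at 32.1 ± 3.74 (SD, n = 4), Hoxb6 at 27.9 ± 6.45, Hoxb7 at 16.8 ± 1.56, Hoxb8 at 12.2 ± 1.81 and Hoxa7 at 12.0 ± 1.81, and Hoxb9 and Hoxb6 overlapped in their spread, as did Hoxb8 and Hoxa7. The order depends on the transcript length used: with the median length of the annotated transcripts, Hoxa13 stood at 79.8 and Hoxa9 at 42.6 CPM per kb in distal crypts, both above Hoxd13 at 40.5, and Hoxa7 at 33.9. Summed over all members, Hox RNA was 288 to 367 CPM in proximal and 714 to 842 CPM in distal WT crypts, where Hoxb13 alone made up 386 to 431 CPM.

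Other genes within and beside the clusters were also called between the segments. Evx2, a homeobox gene beyond Hoxd13, had no proximal count and read 182 to 295 in distal libraries (log2 fold change 7.78), and Evx1, its counterpart beyond Hoxa13, rose by less (10.7 to 50.2 against 59.7 to 114, log2 fold change 1.47, adjusted p = 0.0025). Of 17 noncoding RNAs of the clusters, 5 were tested, 3 were higher and 2 lower in distal crypts: Hottip, transcribed from the 5′ end of Hoxa, read 7.76 to 161 against 1038 to 1262 (5.01), Hoxa11os, antisense to Hoxa11, read 300 to 581 against 3254 to 4814 (3.40), and Hotairm1 rose by 1.47, while Hoxb5os (-5.54) and Hoxaas3 (-0.85) fell. Of 19 tested coding neighbors outside the clusters, 8 were higher, 2 lower and 9 not called, where 42.1% of all genes were called. Ttll6, next to Hoxb13, rose by 2.24.

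Regulators of Hox genes were called in both directions, where 42.1% of all genes were called. Of 17 caudal and colon identity factors tested, 4 were higher, 6 lower and 7 not called in distal crypts. Cdx2, which sets intestinal identity, read 15590 to 20566 in proximal and 2160 to 4482 in distal libraries (log2 fold change -2.42, adjusted p = 4.2e-08), whereas Cdx1 rose slightly with overlap (15071 to 19929 against 18873 to 22515, log2 fold change 0.26, adjusted p = 0.017). Gata5 (-4.46) and Gata4 (-2.98), zinc finger factors of the proximal gut, fell. Of 5 TALE cofactors tested, 2 were higher and 2 lower, and Meis1 and Meis2 were at 0 to 6.79 in all 11 libraries and untested. Of 12 retinoid and Gdf11 signal genes, 2 were higher and 7 lower, among them Aldh1a1, which makes retinoic acid (-4.90), Rarg (-1.37) and Gdf11 (-1.59). Of 27 Polycomb and trithorax genes, 4 were higher and 4 lower. Prac1, a neighbor of Hoxb13, was not analysed here.

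The segment pattern was called in each colony taken alone and within the libraries whose code in the sample descriptions begins with 4149. What these code prefixes stand for is not given in the sources used here. In the T/T colony the proximal WT libraries carry 5582 and the distal ones 5094, so segment and prefix cannot be told apart there. The proximal WT libraries of the null colony all carry 4149, so differences between the colonies are confounded with prefix as well. Within the null colony 22 of 27 Hox genes were called (24.9% of all genes), within the T/T colony 22 (30.1% of all genes), and within prefix 4149, which holds 2 libraries of each segment, 21 (13.2% of all genes). Hoxd13 changed by 12.23, 11.89 and 12.22 in these 3 subsets, Hoxb13 by 10.01, 7.66 and 10.00, and Hoxb8 by -8.21, -7.01 and -8.73. The difference between the colonies in the distal over proximal log2 fold change was called for 0 of 27 genes by limma, as it was by edgeR on the recovered reads, and 3 had an unadjusted p under 0.05 (11.1%, compared with 4.39% of all genes). Those 3 were Hoxa13 (-1.23), Hoxb13 (-2.35) and Hoxd8 (1.67), given as the distal over proximal log2 fold change in the T/T colony minus that in the null colony. Distal Hoxb13 was at 386 to 419 CPM in the T/T colony and 410.0 to 431 CPM in the null colony, and proximal Hoxb13 at 0.60 and 5.69 against 0.267 and 0.533 CPM. Markers of other tissues moved with the segment too: the summed level of 10 leukocyte genes, all above 0 in some library, was 73.2 to 109 CPM in proximal and 18.6 to 52.3 CPM in distal WT crypts (6 lower, 1 higher), and that of 8 ileal epithelium genes was 385 to 598 against 37.1 to 102 CPM, with Defa24 and Apoa4 at 0 in several groups. Epithelial markers (10 genes) summed to 28255 to 31624 CPM in proximal and 17694 to 19387 CPM in distal libraries, although 4 were called higher and 2 lower in distal crypts, and endothelial markers (8 genes) to 3.38 to 5.95 against 6.02 to 8.32 CPM. Fibroblast markers were at most 5.11 CPM in any WT baseline library. The part of these cells in the Hox values was not tested.

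**Figure D3:**
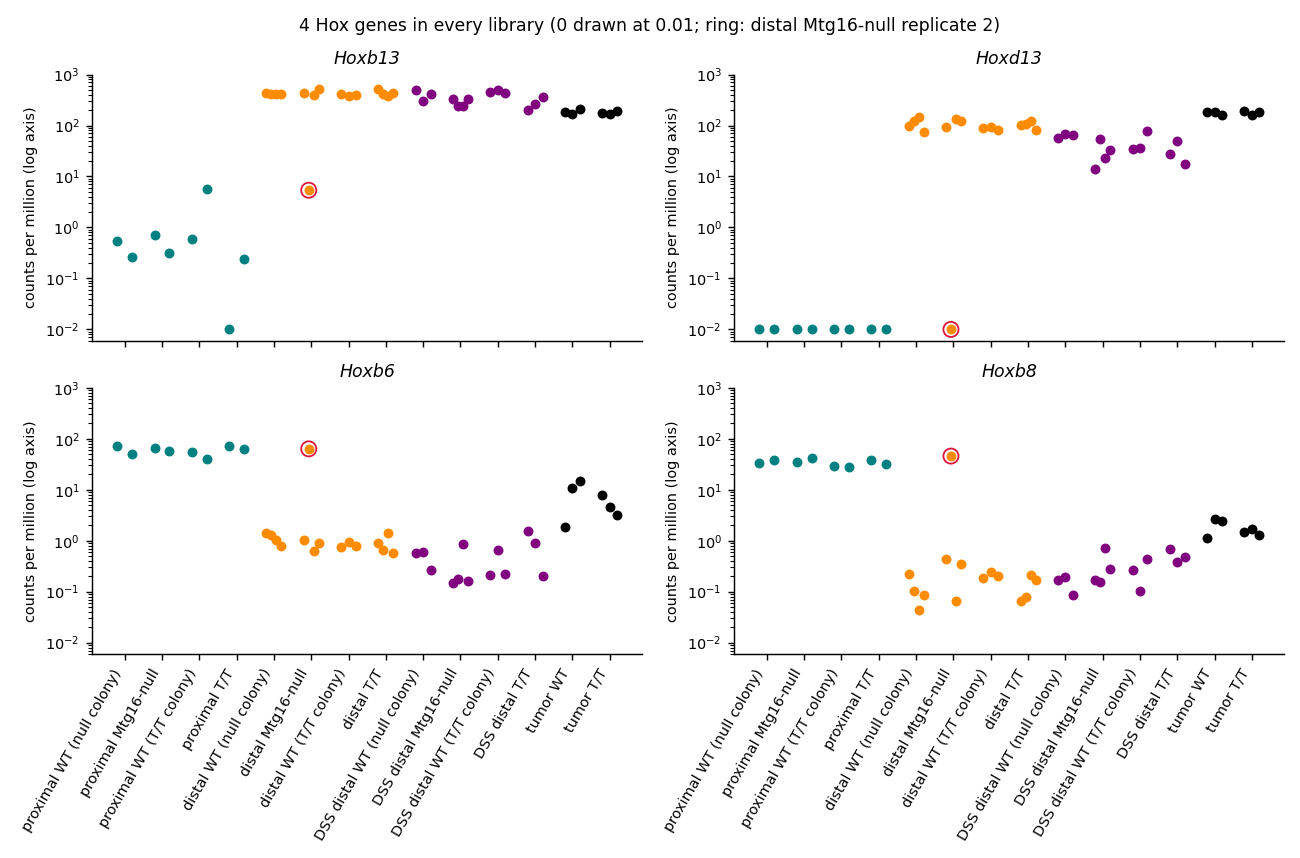
CPM of Hoxb13, Hoxd13, Hoxb6 and Hoxb8 in every library (1 dot each, log axis, 0 drawn at 0.01), by group. The 7 distal WT libraries hold 386 to 431 CPM of Hoxb13 and 74.6 to 149 CPM of Hoxd13; the ringed distal Mtg16-null replicate 2 lies with the proximal libraries for all 4 genes.

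Neither Mtg16 mutant changed a Hox gene of untreated crypts past the threshold. These comparisons ask whether the positional code depends on Mtg16, and they share their WT libraries with the segment comparison. In proximal Mtg16-null crypts (2 against 2), limma called 0 of 22 Hox genes, compared with 0.0645% of all genes, and none had an unadjusted p under 0.05 (5.96% of all genes). Groups did not overlap for 5 of 22 (22.7%, against 35.6% of all genes), namely Hoxa4, Hoxa7, Hoxa9, Hoxa10 and Hoxb2. Hoxa10 had the smallest p of these, with 305 and 294 in WT and 343 and 459 in Mtg16-null crypts (log2 fold change 0.41, adjusted p = 0.88), and Hoxb6 read 3334 and 2587 against 3117 and 2845. Smooth muscle markers summed to 79.0 and 1.27 CPM in Mtg16-null replicates 1 and 2 and to at most 2.17 CPM in WT. Fibroblast markers summed to 18.0 and 2.88 CPM against at most 4.19 CPM. No gene of these lists was called, and their part was not tested. Whole reads could not be recovered from the proximal mutant tables, so no count test was run on them.

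In proximal T/T crypts (2 against 2) limma called 0 of 22 Hox genes (0.232% of all genes), and 8 had an unadjusted p under 0.05 (36.4%, against 12.0% of all genes). Log2 fold changes were positive for 17 of 22. Groups did not overlap for 9 (40.9%, against 45.5% of all genes), with Hoxb3, Hoxb4, Hoxb5, Hoxb6, Hoxb8, Hoxb9, Hoxd3 and Hoxd4 above WT and Hoxb13 below it. Hoxb3 read 949 and 866 in WT and 1196 and 1612 in T/T crypts (log2 fold change 0.61, adjusted p = 0.25). Hoxb13 read 27.1 and 249 in WT and 0 and 11.1 in T/T crypts (log2 fold change -4.59, adjusted p = 0.31), and was the 1 Hox gene called when the replicate number was a block (adjusted p = 0.029, with 1.1% of all genes). T/T replicate 1 was low for the whole 5′ end of Hoxa: Hoxa9 read 34.9 in it, Hoxa10 41.3, Hoxa11 11.6 and Hoxa13 10.6, compared with 559, 418, 156 and 362 in replicate 2, and Hottip read 1.06 against 17.1. Without replicate 2, which leaves the T/T group with 1 library that is assumed to vary like the WT libraries, Hoxa13 was called (log2 fold change -5.30, adjusted p = 0.040) where 0.102% of all genes were. Of 8 ileal epithelium genes tested, 1 was lower in T/T crypts and 7 were not called (median log2 fold change -2.06), while the summed level of the list was 568 to 615 CPM in T/T and 450 to 565 CPM in WT crypts. Smooth muscle markers reached 32.2 CPM in a T/T library against 1.13 CPM in WT; their part was not tested.

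In distal Mtg16-null crypts (4 against 4) limma, edgeR and DESeq2 each called 0 of 27 Hox genes (0.239% of all genes in limma), and none had an unadjusted p under 0.05 (4.63% of all genes). With the library labelled replicate 2 in the group, Hoxd13 read 4455, 5535, 6654 and 3576 in WT and 4180, 0, 5854 and 5748 in Mtg16-null crypts, a log2 fold change of -3.01 (adjusted p = 1.0), and Hoxb6 had one of 1.13. Without it, these were 0.08 and -0.42, that of Hoxb13 turned from -1.52 to 0.06, the sign turned for 15 of the 27 genes, and those of all 27 genes lay between -0.75 and 0.99 (median -0.01) with 0 called and 0 at an unadjusted p under 0.05, although the genes called in the table rose to 146 (1.06%). Hoxa3 alone did not overlap (503 to 559 in WT, 421 to 500 in the 4 Mtg16-null libraries, 3.75% of all genes with replicate 2 and 6.58% without it). In distal T/T crypts (3 WT against 4) limma, edgeR and DESeq2 called 0 of 22 (0.0369% of all genes in limma), no gene was without overlap (7.7% of all genes), and Hoxd11 alone had an unadjusted p under 0.05 (4.55%, against 4.65% of all genes), reading 317, 432 and 368 against 395, 482, 636 and 515 (log2 fold change 0.43, adjusted p = 0.86). Hoxd13 read 3475, 3805 and 3345 in WT and 3879, 4167, 4943 and 3429 in T/T crypts (0.20), and Hoxb13 read 16615, 15817 and 16467 against 19604, 16720, 15333 and 18168 (0.09).

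After DSS, Hoxb9 and Hoxa7 were higher and Hoxa6 and Hoxd8 lower in WT distal crypts of the T/T colony than at baseline. The comparison sets 3 WT libraries after DSS against the 3 baseline WT libraries of the T/T colony, which also serve in the baseline T/T comparison. Of 23 Hox genes tested, 4 were called (17.4%), 2 higher and 2 lower, compared with 35.6% of all genes (14.0% higher, 21.6% lower). At an unadjusted p under 0.05 stood 10 (43.5%, against 50.3% of all genes), and 11 did not overlap (47.8%, against 55.3% of all genes). The median log2 fold change over the 23 was -0.35, and over all genes 0.0040.

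Hoxb9 read 1363, 1468 and 1367 at baseline and 2670, 2363 and 1861 after DSS (log2 fold change 0.70 ± 0.16, adjusted p = 0.0214), and Hoxa7 read 1414, 1298 and 1254 against 2300, 2186 and 1523 (log2 fold change 0.58 ± 0.18, adjusted p = 0.0485). Both rose without overlap between the groups. Hoxa6 fell from 142, 109 and 73.8 to 43.5, 46.5 and 63.6 (log2 fold change -1.04 ± 0.31, adjusted p = 0.0425), and Hoxd8 from 13.3, 11.2 and 29.5 to 3.90, 3.10 and 5.71 (log2 fold change -1.77 ± 0.46, adjusted p = 0.0281). Hoxd8 averaged 18.0 at baseline and 4.24 after DSS, so it passed the mean of 10 only through its baseline libraries and lies near the floor. Hoxd13 just missed the threshold, with 4037, 4366 and 3864 before and 1697, 1783 and 3657 after DSS (log2 fold change -0.87 ± 0.30, adjusted p = 0.0583), as did Hoxa9 (1788, 1824 and 1678 against 1474, 1338 and 1352, log2 fold change -0.35, adjusted p = 0.0527). Hoxb13 read 19303, 18150 and 19026 against 22468, 24400 and 20558 (log2 fold change 0.25, adjusted p = 0.095). In WT libraries of the null colony, set side by side in CPM without a test, each gene called above overlapped between DSS and baseline. Hoxb9 stood at 29.1 to 32.0 after DSS against 31.2 to 36.9, and Hoxa7 at 28.6 to 34.4 against 24.2 to 30.1 CPM. Hoxa6 stood at 0.491 to 1.98 against 1.59 to 3.15, and Hoxd8 at 0.123 to 0.253 against 0.141 to 0.326 CPM.

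The number of calls moved with single libraries, for Hox genes and for all genes. DSS replicate 3 was the DSS library nearest to baseline for 4226 of the 4833 called genes (87.4%), and its Hoxd13 and Hoxd10 values lay close to baseline. Without it, 11 Hox genes were called where 66.9% of all genes were, with Hoxa3, Hoxa7, Hoxb9 and Hoxb13 higher and Hoxa6, Hoxa9, Hoxd8, Hoxd9, Hoxd10, Hoxd11 and Hoxd13 lower. Without DSS replicate 2 only Hoxb6 was called, lower after DSS, with 13.4% of all genes. Without DSS replicate 1 no Hox gene was called, with 3.62% of all genes, and none was without baseline replicate 1 (5.03% of all genes), 2 (0.00737%) or 3 (9.41%). With the replicate number as a block, Hoxb9 and Hoxd8 remained called, with 19.7% of all genes. On the recovered reads edgeR called the same 4 genes as limma (32.2% of all genes). DESeq2 called 6 (44.1% of all genes), adding Hoxa9 and Hoxd9 as lower. All baseline libraries of this comparison carry the code prefix 5094 and all DSS libraries 5740, so prefix and treatment cannot be told apart. Epithelial markers (10 genes) summed to 20564 to 26801 CPM after DSS and 17694 to 19387 CPM before, and leukocyte markers to 17.6 to 21.3 against 30.0 to 52.3 CPM. Fibroblast markers (10 of 10 above 0) summed to 3.34 to 7.59 against 1.18 to 2.61 CPM, with 2 of 4 tested called higher, and neuron and glia markers to 7.77 to 10.7 against 5.69 to 6.18 CPM. Their part was not tested. Of genes around Hox, Evx1 rose (64.1 to 82.5 against 159 to 227, log2 fold change 1.38, adjusted p = 0.011), as did Cdx1 (0.49) and Hoxaas3 (0.70), and Evx2 read 199, 219 and 209 against 54.5, 71.3 and 164 (log2 fold change -1.27, adjusted p = 0.0500029). Of 16 caudal and colon identity factors tested, 7 were higher and 2 lower, of 12 retinoid and Gdf11 genes 3 and 2, and of 27 Polycomb and trithorax genes 4 and 8. Over all genes 35.6% were called.

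After DSS, Mtg16-null distal crypts held less RNA of Hoxd10 to Hoxd13 than WT crypts in every library, at a size that limma did not call without a replicate block. The question is whether loss of Mtg16 alters the epithelium that regrows after injury (3 WT against 4 Mtg16-null libraries of the null colony, which share no sample with any other table). Limma called 0 of 22 Hox genes, compared with 0.629% of all genes, edgeR called 0, DESeq2 called 2 (Hoxa11 higher, Hoxd12 lower, 5.02% of all genes), and 5 had an unadjusted p under 0.05 (22.7%, against 12.4% of all genes). The same number did not overlap between genotypes (22.7%, against 11.4% of all genes).

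Hoxd13 read 3321, 3787 and 3549 in WT and 815, 2864, 1283 and 1878 in Mtg16-null crypts (log2 fold change -1.20 ± 0.35, adjusted p = 0.17). Hoxd12 read 227, 129 and 185 against 22.9, 74.5, 37.2 and 88.4 (log2 fold change -1.83 ± 0.47, adjusted p = 0.12). Hoxd11 read 444, 409 and 451 against 82.0, 279, 156 and 267 (log2 fold change -1.30 ± 0.39, adjusted p = 0.18). Hoxd10 did the same, with 161, 145 and 166 against 12.1, 83.7, 53.6 and 93.7 (log2 fold change -1.69 ± 0.61, adjusted p = 0.28). Mtg16-null replicate 1 was the lowest library for all 4 genes, and the groups were apart for each. The next gene of the cluster, Hoxd9, overlapped (60.5, 32.2 and 45.6 against 39.8, 87.4, 36.3 and 44.2, log2 fold change 0.12). Hoxa11 was the 1 Hox gene higher without overlap, with 123, 167 and 132 in WT and 246, 307, 382 and 177 in Mtg16-null crypts (log2 fold change 0.93 ± 0.29, adjusted p = 0.18), and Hoxb13 overlapped (29049, 16640 and 22042 against 18694, 12904, 13288 and 18928, log2 fold change -0.49, adjusted p = 0.43).

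Libraries with the same replicate number deviated together in this comparison (correlations of 0.32 to 0.55 over 3 pairs), so the numbers were taken to pair them. No label states which libraries are pairs, so the block was chosen from these same data and is no independent support. With the replicate number as a block, in which Mtg16-null replicate 4 has no partner and adds nothing, limma called 6 Hox genes where 8.78% of all genes were called: Hoxa11 rose (log2 fold change 1.13, adjusted p = 0.0116), and Hoxb13 (-0.58), Hoxd10 (-2.01), Hoxd11 (-1.50), Hoxd12 (-2.11) and Hoxd13 (-1.30) fell, with adjusted p between 0.0147 and 0.0344. The genes and markers that follow are from the limma fit without the block. Beside the clusters, Evx2 read 138, 158 and 163 against 61.5, 133, 62.6 and 71.6 (log2 fold change -0.96, adjusted p = 0.22), and Hottip read 909, 1139 and 1056 against 545, 746, 752 and 727 (log2 fold change -0.58, adjusted p = 0.18). Cdx2 rose (4452, 5575 and 5414 against 8468, 8380, 9563 and 8649, log2 fold change 0.77, adjusted p = 0.043), the 1 gene called among 15 caudal and colon identity factors. Genes with a segment pattern also shifted: of the 871, 24.5% to 32.4% were nearer to the proximal WT mean in the Mtg16-null libraries after DSS, compared with 8.96% to 13.7% in WT. Leukocyte markers summed to 39.8 to 103 CPM against 23.4 to 39.9, fibroblast markers (10 of 10 above 0) to 8.92 to 82.4 against 7.35 to 9.34, and neuron and glia markers to 15.0 to 19.3 against 7.47 to 8.37 CPM. Of 4 neuron and glia genes tested 1 was called, Ret, which was higher in Mtg16-null crypts (log2 fold change 1.44, adjusted p = 0.011), and the median log2 fold change of the 4 was -0.10. Ileal epithelium markers summed to 51.4 to 74.2 against 39.3 to 52.4 CPM, with Defa24 and Apoa4 at 0 in both groups, and of 5 tested 1 was called, Fabp6, which was lower (log2 fold change -1.39, adjusted p = 0.035), while their median log2 fold change was 0.97. No leukocyte or fibroblast gene was called in the fit without the block. The part of these cells in the Hox values was not tested.

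**Figure D4:**
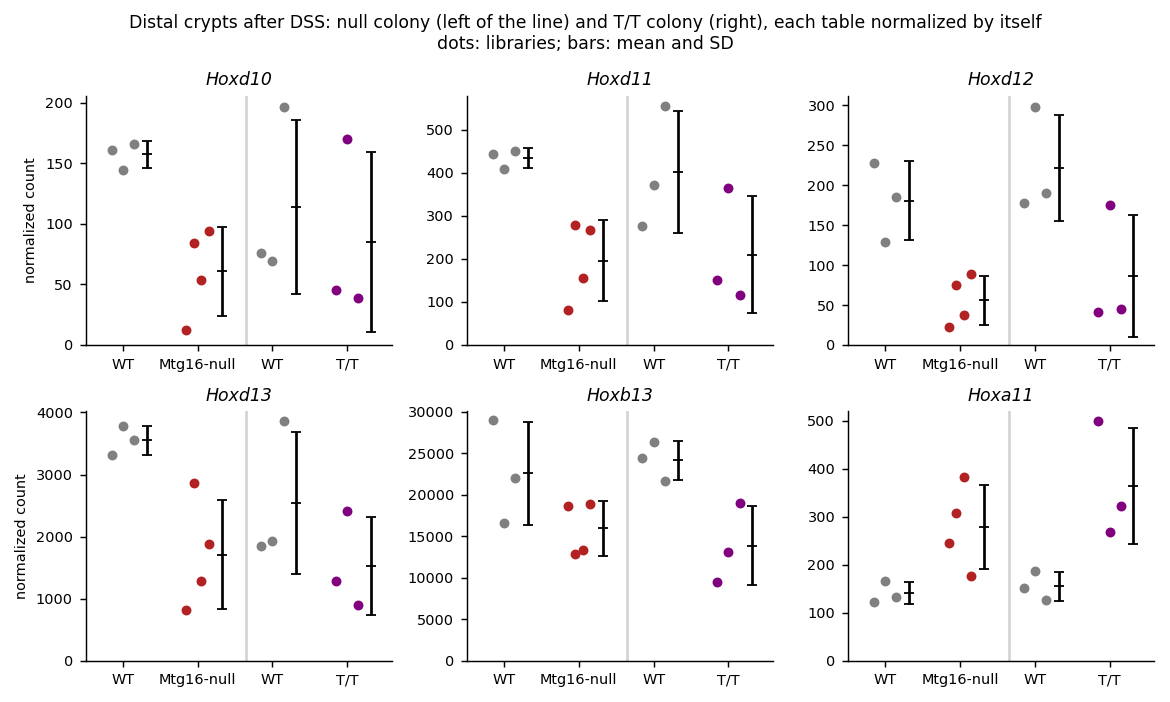
Normalized counts of Hoxd10, Hoxd11, Hoxd12, Hoxd13, Hoxb13 and Hoxa11 in distal crypts after DSS, 1 dot a library, with the mean and SD of each group, for the null colony (left of each line) and the T/T colony (right), whose tables were normalized separately. In the null colony Hoxd13 spans 3321 to 3787 in WT and 815 to 2864 in Mtg16-null crypts; in the T/T colony its groups overlap (1845 to 3861 and 894 to 2416).

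T/T distal crypts after DSS (3 against 3, with the WT libraries of the DSS comparison above) had values on the same side for some of these genes, with more overlap. Limma called 0 of 23 Hox genes and 0.0% of all genes, edgeR called 0, DESeq2 called Hoxa11 (log2 fold change 1.24, 2.45% of all genes called), and 4 had an unadjusted p under 0.05 (17.4%, against 8.77% of all genes). Groups did not overlap for 7 (30.4%, against 13.7% of all genes): Hoxa3, Hoxa5, Hoxa6, Hoxa9 and Hoxa11 were higher and Hoxb13 and Hoxd12 lower. Hoxa11 read 151, 187 and 128 in WT and 500, 269 and 322 in T/T crypts (log2 fold change 1.19 ± 0.31, adjusted p = 0.31). Hoxd12 read 177, 298 and 190 against 40.8, 175 and 44.7 (log2 fold change -1.64 ± 0.59, adjusted p = 0.49), and Hoxb13 read 24423, 26309 and 21706 against 9518, 13067 and 19012 (log2 fold change -0.85 ± 0.26, adjusted p = 0.40). Hoxd13 overlapped, with 1845, 1923 and 3861 against 1288, 2416 and 894 (log2 fold change -0.77, adjusted p = 0.72), as did Hoxd11 (-1.05) and Hoxd10 (-0.59). Whether the 2 mutants differ was not tested. Of the 871 segment genes, 17.3% to 32.1% were nearer to the proximal WT mean in T/T and 6.43% to 15.7% in WT libraries, and leukocyte markers summed to 28.6 to 33.1 against 17.6 to 21.3 CPM. Neuron and glia markers summed to 18.3 to 25.3 against 7.77 to 10.7 CPM, and fibroblast markers to 2.64 to 15.7 against 3.34 to 7.59 CPM. Ileal epithelium markers summed to 63.9 to 106 against 46.4 to 60.1 CPM, with Defa24 at 0 in both groups. No gene of these lists was called, and their part was not tested.

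Tumors held Hoxd13, Hoxb13 and Hoxa9 RNA with low amounts of Hoxb2 to Hoxb8, and no Hox gene was called between genotypes. Of 27 Hox genes tested between 3 T/T and 3 WT tumors, limma, edgeR and DESeq2 called 0 (0.0% of all 15900 genes in limma), none had an unadjusted p under 0.05 (2.47% of all genes), and none was without overlap (5.52% of all genes). Hoxd13 read 8889, 8913 and 7963 in WT and 9391, 7860 and 8826 in T/T tumors (0.02), and Hoxb13 read 8832, 7955 and 10538 against 8645, 8012 and 9045 (-0.08). Hoxa9 read 3840, 4756 and 4397 against 4188, 3637 and 4639 (-0.06). Hoxb6 was spread widely within both genotypes, with 89.5, 512 and 739 against 391, 220 and 150 (log2 fold change -0.46 ± 0.75, adjusted p = 1.0).

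No table holds tumors and crypts together, so their levels are set side by side in CPM without a test. Hoxd9 to Hoxd13 summed to 246 to 292 CPM in tumors and 91.0 to 188 CPM in distal WT crypts, and Hoxa9 to Hoxa13 to 165 to 231 against 126 to 149 CPM. Within the Hoxa sum, Hoxa9 stood at 74.9 to 99.2 against 31.1 to 42.5 CPM, while Hoxa13 was not higher in tumors (33.6 to 64.2 against 50.8 to 69.5 CPM). Hoxb13 went the other way, with 165 to 211 CPM in tumors and 386 to 431 CPM in distal WT crypts. Hoxb2 to Hoxb8, at 1.76 to 3.08 CPM in distal and 126 to 191 CPM in proximal WT crypts, stood between the segments in tumors, at 10.2 to 45.0 CPM. Hoxd3 to Hoxd8 stood at 2.86 to 6.14 CPM in tumors, above distal (0.141 to 0.724) and partly within the range of proximal WT crypts (5.05 to 17.0). Evx1 read 1767 to 3652 normalized counts in tumors. The summed level of all members was similar, 720 to 841 CPM in tumors and 714 to 842 CPM in distal WT crypts. Tumors were dissected whole: fibroblast markers summed to 2957 to 4063 CPM (at most 5.11 in WT baseline crypts), leukocyte markers to 783 to 2837 CPM, smooth muscle markers to 352 to 2467 CPM and epithelial markers to 9894 to 15477 CPM (17694 to 19387 in distal WT crypts of the T/T colony). Ileal epithelium markers summed to 933 to 2201 CPM in tumors (37.1 to 102 in distal WT crypts at baseline), and 40.0% to 45.2% of the 871 segment genes were nearer to the proximal WT mean. The part of these in the Hox values was not tested, and tissue make-up and level per cell cannot be told apart.

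**Figure D5:**
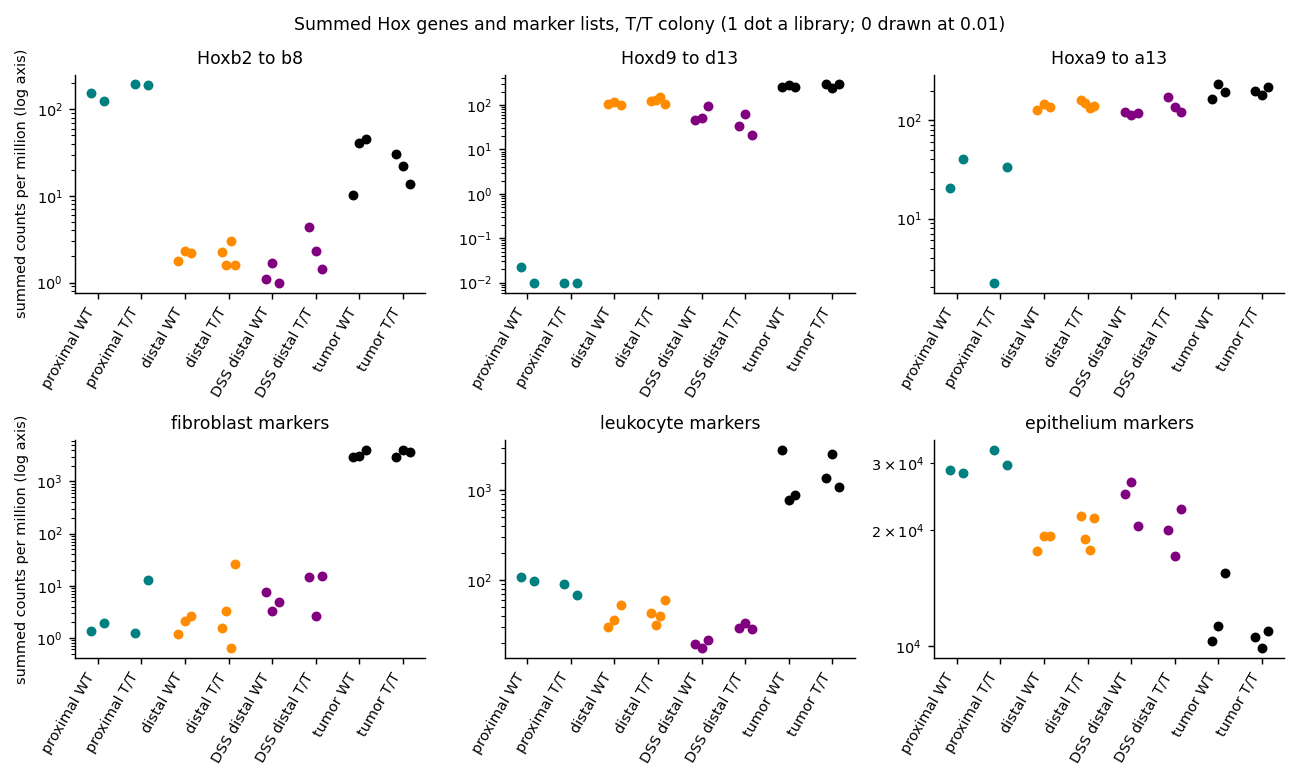
Summed CPM of Hoxb2 to Hoxb8, Hoxd9 to Hoxd13, Hoxa9 to Hoxa13 and of 3 marker lists in the T/T colony, 1 dot a library on a log axis with 0 drawn at 0.01. In tumors Hoxb2 to Hoxb8 lie at 10.2 to 45.0 CPM, between the distal and proximal crypts, beside fibroblast markers at 2957 to 4063 CPM.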

How the data were processed

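Poly(A) RNA libraries were sequenced by the authors, who trimmed reads with fastp 0.20.0, quantified them against GENCODE mouse transcripts with Salmon 1.3.0 (mm10) and normalized and tested them with DESeq2 1.26.0 in R 3.6.3. The deposited values are counts divided by DESeq2 size factors, a normalized signal and not raw counts, in 9 tables with 59 library columns from 42 libraries. Columns with fold changes and p-values of the authors' own comparisons were not used. In 7 tables whole reads were recovered (100% of values under 1000 reads within 0.1 read of a whole number).

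The main test was limma 3.58.1 (trend) on log2(normalized count + 1) for genes with a mean of at least 10, with Benjamini-Hochberg adjustment over each table and a threshold of 0.05, tested on simulated data. CPM is a value divided by the sum of its column, with a gene not listed in a table taken as 0. Alternatives were a pseudocount of 0.1, no filter, a 1.5-fold minimum, leaving out each library, the replicate number as a block, colony or code prefix terms, and count tests of the recovered reads with edgeR 4.0.16 or DESeq2 1.42.0. Members and lists were chosen with earlier results of these data known. Every member entered the tests and counts, and a few genes are not reported here; per-library values were given for members called between segments with a mean of at least 100 or of paralog groups 9 to 13, and for members called elsewhere; other genes were those of the lists with the largest changes and a few named whatever their values. Among comparisons with 3 or more pairs of replicate numbers, every pair's correlation of deviations was over 0.1 only in Mtg16-null crypts after DSS (0.32 to 0.55 over 3 pairs), where the numbers were taken to pair libraries; the proximal genotype comparisons have 2 pairs each, too few to decide. Gene models are GENCODE vM21 (GRCm38). Analyses used R 4.3.3, Python 3.11.15, numpy 2.4.6, pandas 2.3.3, scipy 1.17.1 and matplotlib 3.10.9.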

Additional observations from a re-analysis of the deposited data

Results flagged for a closer look

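In 98 checks of a member within a group of 4 libraries, the highest or lowest library lay far from the other 3 in 18, where independent values would give about 1 in 20. The checks reuse the same libraries over neighboring genes, so the 18 are not independent and no excess is read from them. Of the 18, 13 were distal Mtg16-null replicate 2, the library whose segment goes against its label: Hoxb2 read 114 in it, Hoxb4 608, Hoxb5 793, Hoxb6 2883, Hoxb7 1057, Hoxb9 3522 and Hoxd4 311, all above the other 3 libraries, while Hoxb13 read 245 and Hoxd9, Hoxd10, Hoxd11, Hoxd12 and Hoxd13 read 0, all below them. The other 5 were spread over 5 libraries. Hoxb2 read 1.16, which is 1 read, in distal WT replicate 2 of the null colony and 0 in the other 3, and Hoxd9 read 30.2 in replicate 4, below the others. Hoxa3 read 463 in distal T/T replicate 4, above the others, and Hoxa5 333 in replicate 1, below them. Hoxb6 read 49.0 in Mtg16-null replicate 3 after DSS, above the others.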

How the results depend on the processing

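The 23 Hox genes called between WT segments were recomputed under each alternative that could be run, which gave 482 values with a p: 476 kept direction and side of the threshold, 6 lost the call (among them Hoxa3 within code prefix 4149) and none reversed. Leaving out any 1 library kept the count at 23, and the replicate block gave 22. The 1.5-fold minimum is not among these 482 values, and Hoxa3, with a log2 fold change of 0.51, lies under it. DESeq2 gave no adjusted p for Hoxb13. The counts of 0 in the proximal and distal Mtg16-null, distal T/T and tumor comparisons stayed at 0 under every alternative run, the replicate block included, as did the count of 0 for the difference of the segment change between colonies.

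Counts that moved in the other comparisons were these. In proximal T/T crypts the replicate block called 1 Hox gene (Hoxb13) and leaving out a library gave 0 to 1. In Mtg16-null crypts after DSS the replicate block, chosen from correlations in these same data, called 6 and DESeq2 called 2. In T/T crypts after DSS DESeq2 called 1. In WT crypts after DSS against baseline, DESeq2 called 6, no filter and the replicate block each called 2, and leaving out a library gave 0 to 11. Hoxa7, called there with a log2 fold change of 0.58, lies under a 1.5-fold minimum. In distal Mtg16-null crypts 15 of 27 log2 fold changes changed sign without replicate 2, none of them called with or without it; over all libraries left out in turn they ran from -0.42 (without it) to 1.80 for Hoxb6, from -2.13 to 0.062 (without it) for Hoxb13 and from -4.09 to 0.080 (without it) for Hoxd13. Of the recomputed values of a subset of Hox genes in each comparison, not of every member, 661 kept direction and side, 30 lost a call, 11 gained one, 8 levels per kilobase moved with transcript length and 3 reversed. Correlations of deviations by replicate number did not pair the other comparisons of 3 or more pairs (-0.13 to 0.16 between segments, 0.016 to 0.37 for distal Mtg16-null, -0.28 to 0.16 for distal T/T, -0.77 to -0.03 for T/T after DSS, -0.12 to -0.05 for DSS in WT, -0.38 to 0.10 in tumors), and were 0.15 in proximal Mtg16-null and T/T crypts, with 2 pairs each. Between segments, libraries of the same replicate number carry different code prefixes. Pairs of segments within prefix 4149 were therefore not examined. With 2 libraries a group in proximal crypts, only large differences could pass.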

Other observations

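Meis1 and Meis2, TALE homeodomain genes whose proteins bind DNA with Hox proteins, were near 0 in baseline crypts and differed between the 2 colonies after DSS, in tables normalized separately and with no test between them. Meis1 read 295, 157 and 188 in the WT and 569, 177, 267 and 470 in the Mtg16-null libraries of the null colony, and 0 to 5.37 in the 6 libraries of the T/T colony. Meis2 read 240, 156 and 117 and 515, 157, 281 and 360 in the null colony, and 0 to 5.72 in the T/T colony. Both genotypes of the null colony thus held these RNAs, and Meis1 (0.70, adjusted p = 0.56 in limma) and Meis2 (0.88, adjusted p = 0.42) were not called between them. The 2 sets of DSS libraries carry different code prefixes in the sample descriptions (6217 and 5740), so colony and prefix cannot be told apart. In tumors Meis1 read 131 to 423 and Meis2 565 to 970.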
